A study of Rattus norvegicus with 14 samples.

Results

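Chka, Pemt and Pcyt1a encode enzymes that make phosphatidylcholine, the main phospholipid of cell membranes and of the surface of very low density lipoprotein (VLDL). They were described in rat liver from arrays of 14 RNA samples. The members were the probe sets whose gene symbol in the platform annotation was one of the 3 names, and 4 of the 4502 probe sets qualified, for 2 of the 2670 genes named on the array. Chka had 3 of them (D10262_at, E04239cds_s_at and D37884exon_s_at) and Pemt had 1 (L14441_at). Pcyt1a had 0 probe sets in the table, so it was not measured.

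In the CDP-choline route, choline kinase (Chka and its relative Chkb) phosphorylates choline, the enzyme Pcyt1a joins the product to CTP to make CDP-choline, and a last enzyme transfers phosphocholine to diacylglycerol. Liver also has a methylation route, in which Pemt converts phosphatidylethanolamine to phosphatidylcholine with methyl groups from S-adenosylmethionine. Hepatocytes need phosphatidylcholine to assemble and secrete VLDL, and mice that cannot make enough of it accumulate fat in the liver. Orotic acid is an intermediate of pyrimidine synthesis, which ends in the nucleotides UTP and CTP, and it produces a fatty liver in rats.

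Biotin-labelled total RNA from the left lateral lobe of the liver was hybridised to 1-colour Affymetrix arrays. There were 2 arrays of Kyoto rats at day 1 of feeding, 2 at day 3 and 2 at day 14, 2 arrays of Wistar rats at day 3, 3 of Wistar rats at day 14 and 3 Wistar controls. All fed rats of both strains received chow with 1% orotic acid and the Wistar controls received standard chow, and no genetic change was named in the labels beyond the strain. Ages were not given. Kyoto rats without orotic acid, and Wistar rats after 1 day of it, were not analysed here. Every Kyoto array is therefore from a fed rat, and in any comparison of Kyoto arrays with the Wistar controls strain and diet cannot be told apart. The labels do not state that each array is a separate animal, so p-values measure the spread between these samples. Replicate and control numbers used here follow the order of the samples and are not part of the labels. In whole liver, fewer cells of a type and less RNA per cell cannot be told apart.

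The array called Wistar control 2 here stood apart from its label as a Wistar control. Its nearest array was replicate 2 of Kyoto day 3 (r = 0.96; this r is taken across genes and genes are no replicates), and its signal of Ces2e, a carboxylesterase gene, lay at the floor of 6.85 (log2), as on all 6 Kyoto arrays, against 10.09 and 10.76 on Wistar controls 1 and 3. Chka and Pemt differences that use it are given with and without it, as are those of other genes where leaving it out moved the value by over 1.5 times or turned its sign. Wistar control 3 was nearest to replicate 3 of Wistar day 14 (r = 0.97), and 3 arrays, this pair and replicate 1 of Kyoto day 1, had no value in 374 or 375 rows. Replicate 1 of Kyoto day 1 was also the array least like the rest. Its r was 0.928 with its nearest array and 0.895 in the median, again across genes. Both Kyoto comparisons with day 1 use it. Hepatocyte markers were high throughout: 9 of 10 were measured, 0 of them at the floor on every array, with summed signals of 156500 to 160000 at Wistar day 3, 153100 to 159100 at Wistar day 14 and 162100 to 172700 in the controls. That sum was lower on all 5 fed Wistar arrays than on any control, as were 75 of the 1909 features tested (3.93%). In Kyoto livers it was 158300 to 168000 at day 1, 167400 to 171200 at day 3 and 156500 to 158000 at day 14. Stellate cell and fibroblast markers (6 of 8 measured) summed to 9180 to 9926 at Wistar day 3, above all controls at 5239 to 8768, and to 6049 to 8456 at Wistar day 14. In Kyoto livers that sum was 10910 to 12480 at day 1, 6214 to 8602 at day 3 and 8749 to 8761 at day 14. Endothelial markers (2 of 5 measured) summed to 321.7 to 336.5 at Kyoto day 3 and 390 to 474 at Kyoto day 14. At Wistar day 3 and day 14 they summed to 195.7 to 268.7 and 229.4 to 267.3, and in controls to 222.9 to 345.9. Kupffer cell and macrophage markers (4 of 8 measured) summed to 4775 to 5680 at Kyoto day 3 and 4019 to 4192 at Wistar day 3. At day 14 these sums overlapped, at 4098 to 5164 and 3279 to 4605. Lep, the only adipocyte marker of 4 with a value, had 942.6 and 1108 at Wistar day 3 against 603.9 to 799.9 in controls. Of the features tested, 278 (14.6%) lay above all controls at Wistar day 3, as the stellate sum and Lep did. The part of these marker levels in the differences below was not tested.

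The promoter letters of the 2 measured genes are shown because their levels varied nearly apart, as given below, and the letters differ in composition. Each line gives 200 bases on the gene's own strand, from 250 to 51 bases before the RefSeq start used (build GRCr8). Capitals mark the CCAAT box (CCAAT, or ATTGG on the other strand) and the GC box (GGGCGG, or CCGCCC). Both motifs were searched on both strands, and no match overlapped another.
Chka, chr1:210505865-210506064, plus strand: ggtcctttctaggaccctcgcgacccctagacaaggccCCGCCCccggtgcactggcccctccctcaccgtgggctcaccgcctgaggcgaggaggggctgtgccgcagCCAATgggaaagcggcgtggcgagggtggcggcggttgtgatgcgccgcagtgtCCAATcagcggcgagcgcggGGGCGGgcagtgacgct
Pemt, chr10:45341998-45342197, minus strand: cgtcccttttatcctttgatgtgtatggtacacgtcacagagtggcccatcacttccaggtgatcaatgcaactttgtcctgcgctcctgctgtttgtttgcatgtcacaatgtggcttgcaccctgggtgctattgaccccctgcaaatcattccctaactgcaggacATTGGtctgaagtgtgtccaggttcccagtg
The Chka window was 72.0% G or C, above 94.6% of the 33469 promoters in the table, and it held 21 CpG dinucleotides, 2 CCAAT boxes and 2 GC boxes. The Pemt window was 50.5% G or C, near the median of 51.0%, and held 3 CpG dinucleotides, 1 CCAAT box and no GC box. Of all promoters in the same window, 28.8% held a CCAAT box and 24.2% a GC box, so both motifs are common. The Pemt start used lies inside the annotated gene (chr10, 45275434 to 45349651), so the window is that of an internal start. The Chka start used also lies inside its annotated gene (chr1, 210506069 to 210554753), close to the first base. The Chka window ends just before that first base. These matches describe letters only. No expression level was tested against them.

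Chka signals were lower on every fed array than on every control array. The deposited signals of D10262_at, the Chka probe set with the highest mean, were 334 and 348 at Kyoto day 1, 307 and 362 at Kyoto day 3, and 659 and 304 at Kyoto day 14. They were 535 and 321 at Wistar day 3 and 520, 583 and 667 at Wistar day 14, against 812, 725 and 800 in the Wistar controls. The highest fed array thus lay below the lowest control, and the 3 controls lay close together. Among all 1909 features tested, 15 (0.786%) had all 11 fed arrays below the 3 controls, so the pattern is not confined to Chka. This split of the arrays was chosen after the Chka values were seen, so the share is a description and tests nothing. The Kyoto arrays in it also differ from the controls by strain. Against Wistar controls 1 and 3 alone, Chka was again below on all 11 fed arrays, as were 41 features in all (2.15%).

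**Figure D1:**
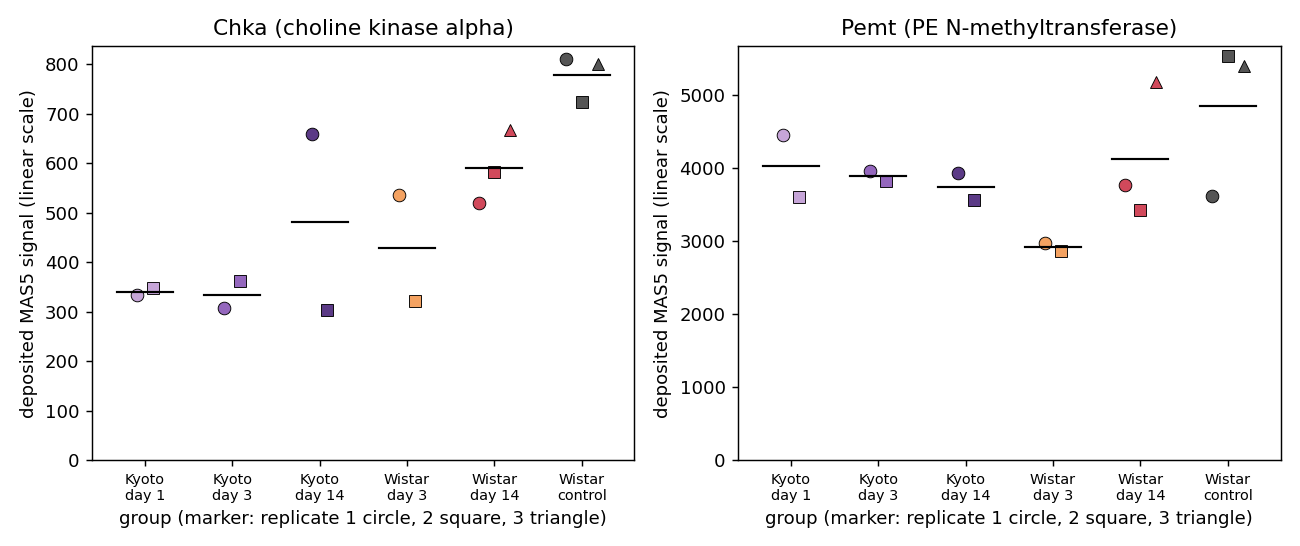
Deposited signals (linear axis from 0) of the 2 measured genes on each of the 14 arrays, grouped by strain and day with controls last; points are arrays (circle, square and triangle for replicates 1, 2 and 3) and horizontal lines are group means. Chka lies between 304 and 667 on the 11 fed arrays and between 725 and 812 on the controls, and Pemt lies between 2868 and 5544 with overlap between most groups.

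No Chka comparison passed the threshold. Values from here are log2 signals after quantile normalization, differences are tested with limma over all features with Benjamini-Hochberg adjustment at 0.05, and values after ± are standard errors unless called SD. At Wistar day 3 the Chka level was 8.72 ± 0.53 (SD, n = 2), against 9.56 ± 0.03 in controls (SD, n = 3). The difference was -0.84 ± 0.31, or 1.79-fold lower, with a 95% interval of -1.51 to -0.18 (limma, unadjusted p = 0.0170, adjusted p = 0.351, lower on 2 of 2 arrays). The arrays did not overlap, as was so for 374 features (19.6%) in that direction. Chka ranked 92 of 1909 by p in that comparison, in which 0 features (0%) passed the threshold and 200 (10.5%) had an unadjusted p under 0.05. Without Wistar control 2 the difference was -0.85 and stayed short of the threshold (adjusted p = 0.553 by limma). The 2 day 3 arrays differed from each other: the value was -1.22 without replicate 1 and -0.47 without replicate 2, the array with the lower signal.

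At Wistar day 14 the Chka level was 9.18 ± 0.20 (SD, n = 3) against 9.56 ± 0.03 in controls (SD, n = 3). The difference was -0.39 ± 0.28 with an interval of -0.98 to 0.21 (limma, unadjusted p = 0.186, adjusted p = 0.991), and -0.40 without Wistar control 2. The arrays did not overlap, as was the case, in the same direction, for 121 features (6.34%). In this comparison 0 features (0%) passed the threshold, with 99 (5.19%) at an unadjusted p under 0.05. Day 14 minus day 3 in Wistar livers was 0.46 ± 0.31 for Chka (limma, adjusted p = 0.993), so the differences at the 2 days were not told apart, and this value was 0.08 without Wistar day 3 replicate 2. Over all features 0 (0%) passed there and 85 (4.45%) had an unadjusted p under 0.05. Both Wistar comparisons use the same 3 controls.

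All 5 fed Wistar arrays together, a comparison chosen after the values were seen, gave Chka a difference of -0.61 ± 0.25 against the controls, 1.53-fold lower (limma, 95% interval -1.15 to -0.08, adjusted p = 0.452). Without Wistar control 2 it was -0.63. Of all features, 5 (0.262%) passed the threshold in this comparison, 173 (9.06%) had an unadjusted p under 0.05 and 75 (3.93%) had all fed Wistar arrays below the controls, as Chka did. The labels give a lot batch, numbered 1, for 11 arrays and none for 3. Within lot batch 1 the fed Wistar arrays had Chka signals of 535, 520 and 583 against 812 and 725 in the controls, and among the arrays with no lot given they had 321 and 667 against 800. With the lot batch as a block the Chka difference was -0.61 for fed Wistar arrays together and -0.83 at Wistar day 3.

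Kyoto arrays had Chka levels of 8.43 ± 0.06 at day 1, 8.38 ± 0.19 at day 3 and, with 2 arrays for each day, 8.79 ± 0.76 at day 14 (all SD). Day 3 minus day 1 was -0.05 ± 0.34 (limma, adjusted p = 0.982), day 14 minus day 1 was 0.36 ± 0.34 (limma, adjusted p = 0.729) and day 14 minus day 3 was 0.42 ± 0.34 (limma, adjusted p = 0.979). The large spread at day 14 comes from 2 unlike arrays, at 659 and 304, and replicate 1 decided the sign. Day 14 minus day 1 was -0.17 without replicate 1 and 0.90 without replicate 2, and day 14 minus day 3 was -0.12 and 0.95. No feature passed in day 3 minus day 1 or in day 14 minus day 3 (0%), where 111 (5.81%) and 88 (4.61%) had an unadjusted p under 0.05, and in day 14 minus day 1 there were 1 (0.0524%) past the threshold and 192 (10.1%) at an unadjusted p under 0.05.

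Between fed strains, averaged over days 3 and 14, Chka differed by -0.36 ± 0.23 in Kyoto minus Wistar (limma, 95% interval -0.86 to 0.13, adjusted p = 0.546), and 62 features (3.25%) passed. Kyoto day 14 replicate 1 again moved this value, which was -0.63 without it. It was -0.09 without Kyoto day 14 replicate 2. The strain by time interaction was -0.04 ± 0.46 for Chka (limma, adjusted p = 0.994), and it ran from -0.57 to 0.50 as single arrays were left out. That range gives no direction, and 0 features (0%) passed, with 98 (5.13%) at an unadjusted p under 0.05.

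In order of level, Chka ran from Wistar control through Wistar day 14, Kyoto day 14, Wistar day 3 and Kyoto day 1 to Kyoto day 3. No group in that order differed from its neighbour at an unadjusted p under 0.05 by limma, though the arrays of Wistar day 14 and control did not overlap. That pair had the smallest p, 0.186.

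The other Chka probe sets carried little signal. E04239cds_s_at had deposited signals of 28.3 to 116 on 13 arrays, all at the floor of 115 after scaling, and 153 on Wistar day 14 replicate 3. It gives a bound on each of those 13 arrays and no fold. D37884exon_s_at had 5.26 to 45.4 on 11 arrays and no value on 3, and it entered no fit. The Chka pattern therefore rests on D10262_at alone, and neither of the other probe sets measured it a second time.

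Pemt, the methyltransferase of the second route, differed less between groups. Its deposited signals were 4457 and 3609 at Kyoto day 1, 3966 and 3824 at Kyoto day 3, and 3931 and 3562 at Kyoto day 14. They were 2984 and 2868 at Wistar day 3 and 3770, 3431 and 5179 at Wistar day 14, against 3628, 5544 and 5402 in the Wistar controls. On this scale the 2 Wistar day 3 arrays were the lowest of all 14, and the controls were split, with control 1 below the other 2. After quantile normalization control 1, at 11.66 (log2), lay just below the day 3 arrays at 11.69 and 11.67. Day 3 and control thus overlapped on the scale that was tested.

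At Wistar day 3 the Pemt level was 11.68 ± 0.02 (SD, n = 2) against 12.06 ± 0.35 in controls (SD, n = 3). The difference was -0.38 ± 0.22, or 1.30-fold lower, with an interval of -0.85 to 0.10 (limma, unadjusted p = 0.109, adjusted p = 0.583). At Wistar day 14 the level was 11.89 ± 0.20 (SD, n = 3), and the difference from controls was -0.16 ± 0.20 (limma, 95% interval -0.58 to 0.26, adjusted p = 0.991). Without Wistar control 2 these differences were -0.31 and -0.10, and without control 1, the lowest control, they were -0.57 and -0.36. Without control 3 they were -0.24 and -0.03. With the signals as the authors scaled them, where the median of all features moved to -0.18 at Wistar day 3 (-0.04 here), Pemt was -0.71 at day 3 and stayed short of the threshold. Day 14 minus day 3 was 0.21 ± 0.22 (limma, adjusted p = 0.993), and the arrays did not overlap, as for 222 features (11.6%) in that direction. For the fed Wistar arrays together the difference from controls was -0.27 ± 0.18 (limma, adjusted p = 0.710), -0.47 with the authors' scaling, and -0.47, -0.20 and -0.14 without Wistar control 1, 2 and 3.

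In Kyoto livers Pemt was 12.13 ± 0.15 at day 1, 11.92 ± 0.08 at day 3 and, with 2 arrays for each day, 11.92 ± 0.04 at day 14 (all SD). Day 3 minus day 1 was -0.22 ± 0.24 (limma, adjusted p = 0.920) and day 14 minus day 1 was -0.21 ± 0.24 (limma, adjusted p = 0.783). The arrays of neither pair of days overlapped, which with 2 arrays each was common, at 12.6% and 19.1% of features in the same direction. Day 14 minus day 3 was 0.00 ± 0.24, a value whose sign changed with the scaling. Fed Kyoto minus fed Wistar was 0.13 ± 0.16 (limma, 95% interval -0.22 to 0.48, adjusted p = 0.764) and the strain by time interaction was -0.21 ± 0.33 (limma, adjusted p = 0.954).

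In order of level, Pemt ran from Kyoto day 1 through Wistar control, Kyoto day 14, Kyoto day 3 and Wistar day 14 to Wistar day 3, and neighbours differed by at most 0.21 (smallest unadjusted p 0.345 by limma). The spread within groups was 0.21 for Pemt and 0.35 for Chka (SD over groups, log2), against a median of 0.32 over all features. The spread between the 6 group means was 0.16 for Pemt and 0.45 for Chka. The first spread is of single arrays and the second of means of 2 or 3 arrays, so the 2 are not directly comparable.

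**Figure D2:**
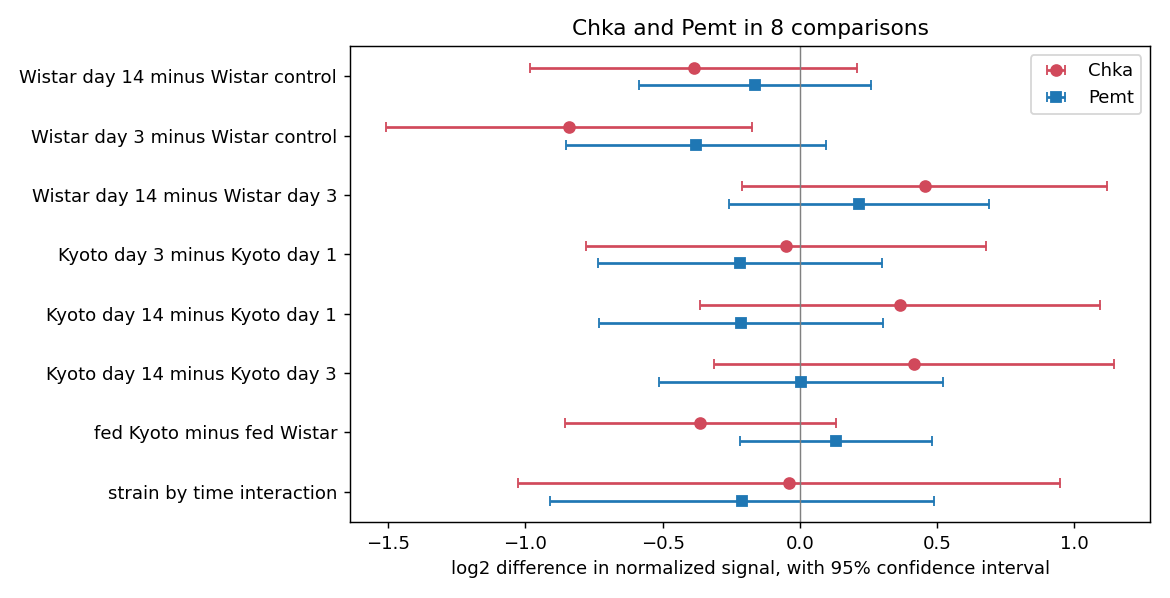
Log2 differences of Chka and Pemt in 8 comparisons, with the group named first minus the group named second; points are limma estimates and bars are 95% intervals. For Chka the interval of Wistar day 3 minus control, -1.51 to -0.18, lies below 0 before any adjustment, and the other intervals drawn include 0; fed Wistar arrays together against control, with a Chka interval of -1.15 to -0.08, are not drawn.

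Over the 14 arrays the 2 genes varied nearly apart (Pearson r = 0.125, Spearman rho = 0.156). The ratio of the deposited Pemt signal to the Chka signal was therefore taken on each array. It is unchanged by a scaling that multiplies a whole array, and it compares arrays, not amounts of the 2 RNAs, because probe sets differ in brightness. The ratio was 13.3 and 10.4 at Kyoto day 1, 12.9 and 10.6 at Kyoto day 3, and 5.96 and 11.7 at Kyoto day 14. It was 5.58 and 8.93 at Wistar day 3 and 7.25, 5.88 and 7.77 at Wistar day 14, against 4.47, 7.65 and 6.75 in the Wistar controls. On 5 of 6 Kyoto arrays the ratio, at 10.4 to 13.3, was above all 8 Wistar arrays, at 4.47 to 8.93, and Kyoto day 14 replicate 1 was among the Wistar values.

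The ratio was chosen after the values were seen and was tested in 2 comparisons. At days 3 and 14 the mean log2 ratio was 3.30 ± 0.50 on the fed Kyoto arrays (SD, n = 4) and 2.80 ± 0.28 on the fed Wistar arrays (SD, n = 5). The difference of 0.50 did not pass a two-sided exact permutation test (p = 0.0952, adjusted p = 0.190, smallest possible 0.00794). Without Kyoto day 14 replicate 1 it was 0.75. That array was the only Kyoto array among the Wistar values, so no p is given without it. The fed Wistar arrays at 2.80 ± 0.28 (SD, n = 5) and the controls at 2.62 ± 0.41 (SD, n = 3) differed by 0.19 (exact permutation p = 0.50, adjusted 0.50), and by 0.34 without Wistar control 2. That difference was -0.043 without Wistar control 1, whose ratio of 4.47 was the lowest of all arrays.

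**Figure D3:**
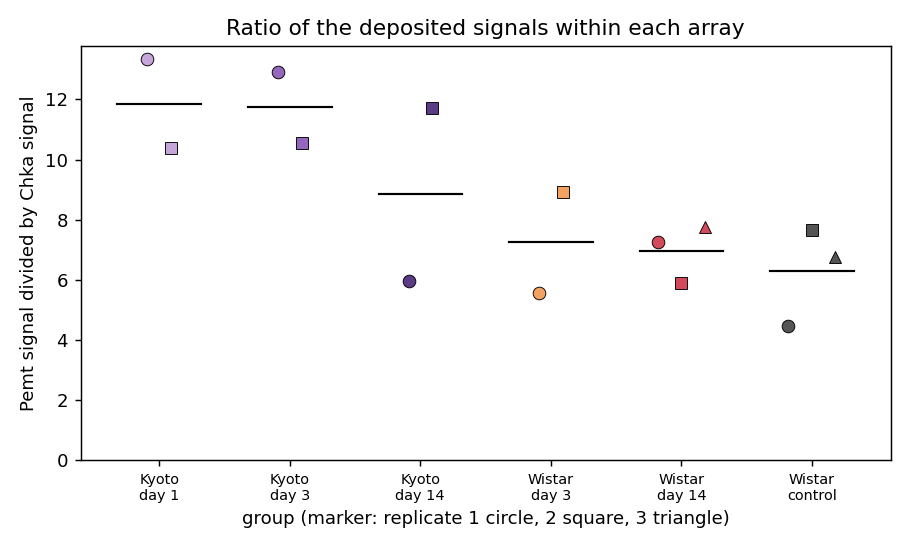
Ratio of the deposited Pemt signal to the deposited Chka signal on each of the 14 arrays, by group, on a linear axis from 0; points are arrays (circle, square and triangle for replicates 1, 2 and 3) and horizontal lines are group means. On 5 of 6 Kyoto arrays the ratio lies between 10.4 and 13.3, and the Wistar arrays lie between 4.47 and 8.93.

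The genes whose log2 signals followed each member most closely over the 14 arrays were taken by Pearson r among 1501 other features with 1 symbol. For Chka they were Gstt1, a glutathione transferase (r = 0.789, rho = 0.758), Ces1e, a carboxylesterase (r = 0.788, rho = 0.815), and Sod1, the cytosolic superoxide dismutase (r = 0.776, rho = 0.811). For Pemt they were Cfp, the complement regulator properdin (r = 0.770, rho = 0.798), Gnb2, a G protein beta subunit (r = 0.761, rho = 0.833), and Syngr2, a vesicle membrane protein (r = 0.758, rho = 0.723). These are the highest of many values over arrays that share their livers and scaling, and they are given as a description.

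Genes of the same pathways were taken from 8 lists with 87 genes in all, of which 38 had a row and 31 were tested, Chka and Pemt included. None of the 31 passed the adjusted threshold in any of the 8 comparisons. At an unadjusted p under 0.05 there were 3 of 31 at Wistar day 3 against control (9.68%, with 10.5% over all features), 1 at Wistar day 14 (3.23%, with 5.19%) and 5 in fed Kyoto minus fed Wistar (16.1%, with 14.4%). In other comparisons the share was above that of all features: 4 of 31 (12.9%, with 5.81%) in Kyoto day 3 minus day 1 and 4 (12.9%, with 4.61%) in Kyoto day 14 minus day 3. It was also above in the interaction, at 3 (9.68%, with 5.13%), and in Wistar day 14 minus day 3, at 2 (6.45%, with 4.45%). Chka was among the 3 at Wistar day 3 against control, and in the rest of these comparisons neither Chka nor Pemt was counted. The median difference of the 31 at Wistar day 3 was 0.01, beside -0.04 over all features, and with the authors' scaling it was -0.14 beside -0.18. As background for the counts of direction below, 861 of all 1909 features were above 0 at Wistar day 3 against control. With the authors' scaling 632 were. At Wistar day 14 against control 879 were above 0, and in fed Kyoto minus fed Wistar 1039 were.

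The CDP-choline route was measured by Chka, Chkb and Cept1, the enzyme of its last step. Their median difference from control was -0.26 at Wistar day 3, where 2 of 3 were below 0, and -0.26 at Wistar day 14, where 3 of 3 were. Chkb had deposited signals of 370 and 450 at Wistar day 3 and 351, 411 and 503 at Wistar day 14, against 521, 479 and 514 in controls. Its day 3 arrays lay below all controls, as for 374 features (19.6%) in that direction, and its day 14 arrays did not. The Chkb differences were -0.26 ± 0.25 at day 3 (limma, adjusted p = 0.771) and -0.26 ± 0.22 at day 14 (limma, adjusted p = 0.991). The liver's choline transporter genes of the list and Chpt1, another enzyme of the last step, had no row.

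Phosphatidylethanolamine, the substrate of Pemt, is made through Pcyt2, the relative of Pcyt1a that makes CDP-ethanolamine, and through Pisd, a mitochondrial decarboxylase. Pcyt2 differed by -0.31 ± 0.21 at Wistar day 3 (limma, adjusted p = 0.643), or -0.57 with the authors' scaling. At Wistar day 14 it differed by 0.10 ± 0.18, or -0.0037 without Wistar control 2. The 3 measured genes of that list, Pemt included, had a median of -0.31 at day 3, or -0.57 with the authors' scaling, and of 0.08 at day 14, or -0.0037 without Wistar control 2.

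The methyl donor list had 6 tested genes, Mat1a, Ahcy, Gnmt, Bhmt, Cbs and Gamt. It mixes genes that supply S-adenosylmethionine or clear its product with Gnmt and Gamt, which use it as Pemt does. Its median was 0.37 at Wistar day 3 and 0.24 at Wistar day 14 against control. On both days 5 of 6 were above 0, and 0 of 6 passed the threshold. With the authors' scaling the medians were 0.08 and 0.10, with 4 of 6 and 5 of 6 above 0, so the size of these differences depended on the scaling between arrays. At Wistar day 3 Mat1a, which makes S-adenosylmethionine, differed by 0.36 ± 0.35, and Ahcy, which removes S-adenosylhomocysteine, by 0.37 ± 0.27. With the authors' scaling they were 0.07 and 0.08, and without Wistar control 2 Ahcy was 0.25. Gnmt, which methylates glycine from the same donor, had deposited signals of 7089 and 5920 at Wistar day 3 and of 10416, 7964 and 5786 at Wistar day 14, against 6517, 4359 and 5833 in controls. These deposited signals overlapped on both days, the scaled ones at day 14 only. At day 3, 278 features (14.6%) lay above all controls on the scaled values, as Gnmt did. The Gnmt differences were 0.52 ± 0.40 at day 3 and 0.65 ± 0.36 at day 14. At day 3 the difference was 0.24 with the authors' scaling and 0.31 without Wistar control 2. Bhmt, which remakes methionine from betaine, differed by 0.17 ± 0.24 at Wistar day 3, and by -0.14 with the signals as the authors scaled them.

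Choline oxidation draws on the same choline as Chka and was measured by Chdh, Aldh7a1, Dmgdh and Sardh. Chdh and Aldh7a1 turn choline into betaine, and Dmgdh and Sardh act on later products. The median of these 4 genes against control was 0.43 at Wistar day 3 and 0.22 at Wistar day 14, with 4 of 4 above 0 on both days. At day 3 it was 0.37, with 3 of 4 above 0, under the authors' scaling, and at day 14 it was 0.16, with 3 of 4 above 0, without Wistar control 2. In fed Kyoto minus fed Wistar the median was -0.32, with 4 of 4 below 0. Chdh, the choline dehydrogenase, differed by 0.43 ± 0.34 at Wistar day 3 and by -0.44 ± 0.25 between the strains (limma, adjusted p = 0.472). None of the 4 passed in any comparison.

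Among genes of phosphatidylcholine transport, Abcb4, the transporter that moves it into bile, differed by 0.29 ± 0.34 at Wistar day 3 and by -0.37 ± 0.30 at Wistar day 14 (limma, adjusted p = 0.823 and 0.991). Single controls moved both values: without Wistar control 2 they were 0.65 and -0.01, and without control 1 they were 0.03 and -0.64. The 4 measured genes of this list had a median of -0.04 at day 3 and -0.43 at day 14, where 4 of 4 were below 0 (-0.27 without Wistar control 2). In fed Kyoto minus fed Wistar the median was 0.21, with 4 of 4 above 0. The pyrimidine list had 5 tested genes. Dpyd, Dpys and Upb1 act in pyrimidine breakdown, and Nme1 and Nme2 are nucleoside diphosphate kinases. These genes had a median of -0.14 at Wistar day 3, or -0.32 with the authors' scaling, and of -0.11 at day 14. In Kyoto livers their median was 0.73 for day 3 minus day 1. There 3 of 5 were higher at an unadjusted p under 0.05, with 5.81% over all features in either direction. For day 14 minus day 1 the median was 0.53, with 2 of 5 (10.1% over all features). Both use the same 2 Kyoto day 1 arrays, which were unlike for Dpyd of this list, at deposited signals of 219 and 807. Upb1, an enzyme of pyrimidine breakdown named after its values were seen, differed by 1.19 ± 0.28 in day 14 minus day 1 (limma, adjusted p = 0.152). Ctps1, a CTP synthase, and Umps, which converts orotic acid to UMP, had no row. Ctps2, the other CTP synthase, had a probe set that was not tested.

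The pathway gene with the largest difference at Wistar day 3, named after its values were seen, was Gpam, the acyltransferase that starts glycerolipid synthesis and so the supply of diacylglycerol. Gpam had 5 probe sets, and only the one with the highest mean, U36773_at, is described. The deposited signals of that probe set were 686 and 1317 at Wistar day 3 and 722, 282 and 704 at Wistar day 14, against 236, 297 and 214 in controls. The day 3 arrays lay above all controls, as for 278 features (14.6%), with a difference of 2.06 ± 0.47 (limma, adjusted p = 0.102), and day 14 replicate 2 lay within the control range. Gpam thus differed from control in the opposite direction to Chka at day 3, and neither passed the adjusted threshold. The Gpam value was 1.51 without Wistar day 3 replicate 2 and 2.61 without replicate 1. Kyoto arrays had Gpam signals of 1018 and 528 at day 1, 140 and 326 at day 3, and 550 and 528 at day 14. Fed Kyoto minus fed Wistar was -1.09 for Gpam and did not pass the adjusted threshold.

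**Figure D4:**
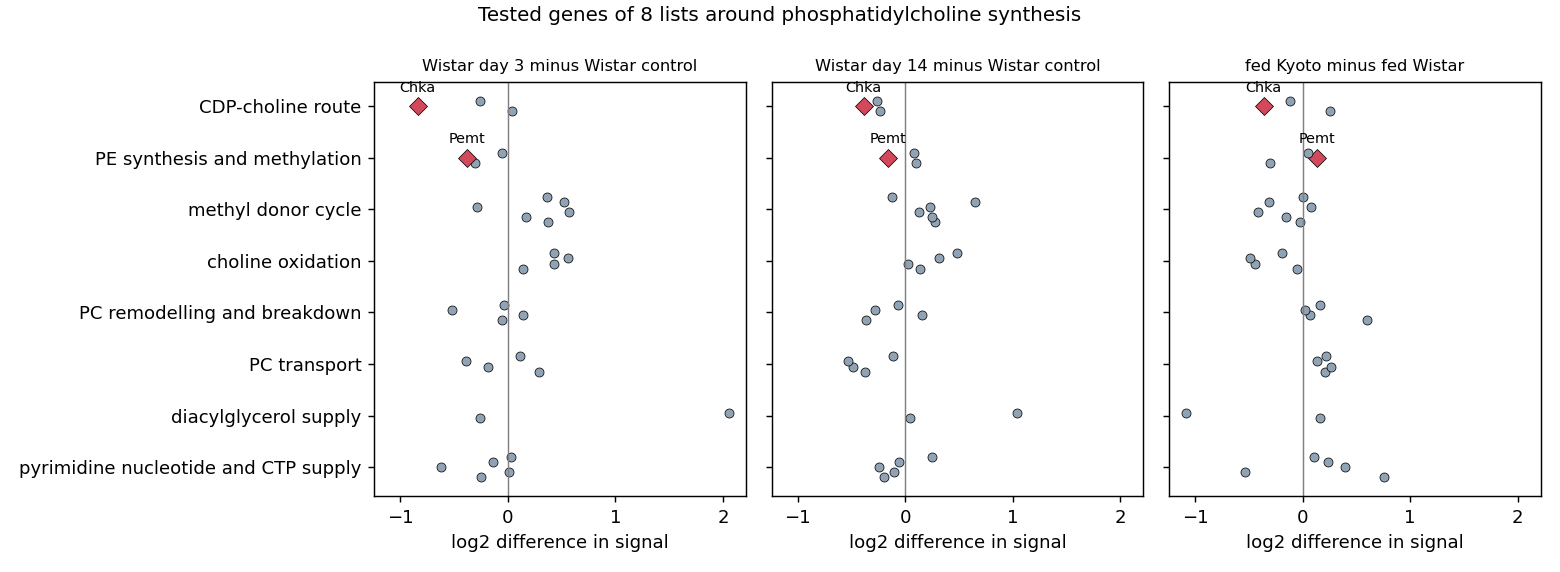
Log2 differences of the 31 tested pathway genes, grouped by list, for Wistar day 3 against control, Wistar day 14 against control and fed Kyoto against fed Wistar; points are limma estimates with Chka and Pemt as diamonds, and none passed the adjusted threshold. At Wistar day 3 Gpam lies highest at 2.06 and Chka lowest at -0.84.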

How the data were processed

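Liver RNA on 14 arrays gave 1 linear intensity per probe set. The deposited intensities came from MAS5 (per the submitters' processing notes), whose version and scaling target the sources used here leave out. On 11 arrays the deposited median was the same, 233.1972, and the 2% trimmed means spread by 37.2%, so log2 signals were quantile normalized with limma 3.58.1 in R 4.3.3 on the 4110 rows used. Rows with a blank value (375) and control rows (24) were left out. Lower signals were raised to a floor, the 25th percentile (115, or 6.85 in log2). The probe set with the highest mean stood for each gene, and the upper 60% of 3181 features by mean, 1909, were tested.

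All arrays entered 1 limma model with a mean for each of the 6 groups, an intensity trend and 8 residual degrees of freedom. The threshold was a Benjamini-Hochberg adjusted p of 0.05 in 8 comparisons and in 1 added after seeing the data. The fit was tested on simulated data. The number of arrays limits the precision.

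The members and lists were chosen with earlier results of these data known. Every member probe set was named with its values. Chkb, Pcyt2, Mat1a, Gnmt, Ahcy, Bhmt, Chdh and Abcb4 were always named, as was any pathway gene past the threshold, and the 3 features most like each member. Promoter letters are from RefSeq, build GRCr8, matched by symbol for Chka and Pemt. Gene IDs of all 4 member probe sets matched the reference table. Alternatives were other scalings, floors, filters, probe set rules and variance settings, blocks for lot batch and for arrays with blank rows, fits on fewer groups, and leaving out each array.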

Additional observations from a re-analysis of the deposited data

How the results depend on the processing

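Over 18 member results and 504 settings, 491 kept the direction and the side of the threshold, 13 reversed, and in 0 did Chka or Pemt pass. The smallest adjusted p over the alternatives was 0.191 for Chka and 0.223 for Pemt, both at Wistar day 3 against control. The cause of the changes below was not tested.

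For Pemt, Kyoto day 14 minus day 3 was -0.058 with the authors' scaling and -0.049 with median scaling, and ran from -0.054 to 0.064 as single arrays were left out. Bhmt at Wistar day 3 was -0.14 and -0.15 with the same 2 scalings. Gpam at Wistar day 3 passed with array weights (2.13, adjusted p = 0.0186). The Chka interaction was 0.0088 with array weights and 0.0545 without Wistar control 2 and Wistar day 14 replicate 3, and ran from -0.57 to 0.50 with single arrays left out. In the same way, Chka ran from -0.18 to 0.08 for Kyoto day 3 minus day 1, from -0.17 to 0.90 for day 14 minus day 1 and from -0.12 to 0.95 for day 14 minus day 3. The log2 ratio of Pemt to Chka ran from 0.37 to 0.75 for fed Kyoto minus fed Wistar and from -0.043 to 0.34 for fed Wistar minus control.

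Counts of features past the threshold moved more. For fed Wistar against control, 5 in the model as described, it was 1 with the authors' scaling, median scaling, only the groups compared and no trend, 0 with cyclic loess, the 10th percentile floor, a log offset, no filter and either block, 3 with the upper 40%, 15 with array weights and 9 without the 2 arrays. With no filter it was 2 for Kyoto day 3 minus day 1, 3 for day 14 minus day 1, 1 for day 14 minus day 3 and 1 for fed Kyoto minus fed Wistar, where it was 39 with the upper 40%, 103 with only the groups compared, 21 with the lot batch block and 135 with array weights. With every probe set kept it was 1 for Wistar day 3 against control and 4 for Kyoto day 14 minus day 1. That Kyoto count was 0 with only the groups compared and with array weights, and Kyoto day 14 minus day 3 had 1 with array weights. Wistar day 3 against control had 5 with only the groups compared, 19 with array weights and 5 without the 2 arrays, and Wistar day 14 against control had 1 with array weights and 5 without the 2 arrays.

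With single arrays left out, counts ran from 0 to 7 for Wistar day 14 against control, 0 to 6 for Wistar day 3, 0 to 14 for both together, 0 to 75 for Kyoto day 3 minus day 1, 0 to 161 for day 14 minus day 1, 0 to 1 for day 14 minus day 3 and 11 to 88 for fed Kyoto minus fed Wistar. The highest Wistar counts came without Wistar day 14 replicate 3 and the highest Kyoto counts over days 1 to 14 without Kyoto day 1 replicate 2. Leaving out that array left day 1 with replicate 1 alone, the array least like all others (median r = 0.895 across genes). Where a group keeps 1 array, that array is assumed to vary like the other groups. No paired analysis was possible because the labels carry no replicate numbers. Chka was measured well above the floor by 1 probe set only, and groups of 2 or 3 arrays limit what could be detected.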
